A study of Mus musculus with 14 samples.

Results

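Epiblast stem cells (EpiSC) were compared with extraembryonic endoderm stem cells (XEN), both given the solvent DMSO alone, in 5 of the 14 RNA sequencing libraries of a mouse stem cell series. EpiSC gave 2 of these libraries and XEN gave 3. The genes described are the protein-coding genes, leaving out histone genes and genes encoded on the mitochondrial genome, because the XEN libraries held more RNA without poly(A) tails. Of 21848 such genes, 14248 passed the filter on low counts and were tested, 7573 did not pass, and 27 identifiers that share a symbol with another were set aside. No expression value was used to choose the libraries.

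The EpiSC line carries the genotype XmolXmus-ΔTsix, a deletion at Tsix, and the XEN line is labelled wild type. Both have a hybrid Mus molossinus by Mus musculus background, and DMSO ran for 12 h. XEN grew in DMEM with fetal bovine serum, and EpiSC in knock-out DMEM with serum replacement, Fgf2 and Activin A. The classes of RNA in the libraries also differed by line. Medium, genotype, RNA makeup of the libraries and cell type therefore cannot be told apart. Each line name stands for 1 line. Whether replicates came from separate cultures is not labelled; if they did not, p-values reflect technical spread between these samples alone. The other libraries were the same lines and trophoblast stem cells (TSC) with DMSO or with 50 µM STM2457, an inhibitor of the RNA methyltransferase METTL3.

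The epiblast is the pluripotent tissue that forms the fetus. EpiSC are derived from it after implantation, are called primed, and depend on Activin or Nodal signals and on FGF. Primitive endoderm is its sister lineage in the blastocyst and gives rise to the parietal and visceral endoderm of the yolk sacs. Parietal endoderm secretes Reichert's membrane, a thick basement membrane built from laminin and collagen IV. GATA factors, SOX17 and PDGFRA act in forming the primitive endoderm, and XEN cells are its stem cell counterpart in culture.

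Total counts were 18640099 and 19331505 in EpiSC and from 6826496 to 9397814 in XEN. The protein-coding genes described here took 96.51% of counts in both EpiSC libraries and 77.57% to 78.67% in XEN. Mitochondrial ribosomal RNA took 14.57% to 15.39% in XEN and 0.0366% and 0.0389% in EpiSC. Replicates differed by more than counting noise, with a chi-square per degree of freedom of 4.757 between the EpiSC libraries and of 9.066 to 19.75 between XEN libraries, so no pair agreed within counting noise and each library was counted as 1 sample. A count of 0 in every library of a line allows up to 0.145 CPM in XEN and 0.0726 CPM in EpiSC (3 counts over the line). CPM are counts scaled to a library total of 1e6 after the adjustment described under processing. Floors and count-based intervals cover counting error only.

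Of the tested genes, 10372 (72.8%) differed between the lines at an adjusted p under 0.05 in edgeR's quasi-likelihood test, of which 6178 (43.4% of tested) were higher in EpiSC and 4194 (29.4%) in XEN. A fold of at least 4 was reached by 2419 genes (17%) higher in EpiSC and by 1316 (9.24%) higher in XEN. Within 2-fold lay 7286 genes (51.1%). The split depends on the scaling: 59.6% of called genes were higher in EpiSC, against 30.1% when libraries were scaled to the cytosolic ribosomal protein genes. That scaling moved the median log2 fold change over all tested genes from 0.24 to -0.55. Fold changes below are EpiSC minus XEN on the log2 scale from the edgeR fit, and a list's median is read against 0.24.

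The genes at least 4-fold higher differed in kind of level between the lines. In XEN, the 1316 genes took 19.4% of the counts of tested genes, and those same genes took 1.48% in EpiSC. In EpiSC, the 2419 genes took 9.6%, and 1.19% in XEN. Of the EpiSC-high genes, 709 had 0 counts in every XEN library and 654 reached 20 CPM. Of the XEN-high genes, 155 had 0 counts in EpiSC and 595 reached 20 CPM. The XEN libraries held fewer counts, so 0 counts came more easily there. Less tied to depth, 1599 EpiSC-high and 602 XEN-high genes lay under 0.5 CPM in the other line. The 10 most abundant genes took 10.1% of the counts in XEN and 3.84% in EpiSC. In XEN, 6 of those 10 encode basement membrane proteins: Col4a1, Lama1, Lamc1, Col4a2, Sparc and Lamb1. In EpiSC they were housekeeping genes such as Eef1a1, a translation elongation factor, Hsp90ab1, a chaperone, and the glycolytic genes Pkm, Eno1 and Gapdh.

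The defining markers followed the labels. Pou5f1, the pluripotency factor OCT4, stood at 714.4 and 742.1 CPM in EpiSC, and the XEN libraries together held 1 of its reads, a ratio of 15123 with a 95% counting interval from 2714 to 597365. Nodal, the TGF-beta ligand of the epiblast, stood at 123.4 and 125.5 CPM in EpiSC with 0 counts in XEN, at least 861.5-fold higher. Fgf5, a marker of primed epiblast, stood at 42.72 and 55.98 CPM with 0 counts in XEN. In XEN, Gata4 read 620.5, 656.6 and 572.2 CPM, against 0.348 and 0.566 in EpiSC. Gata6 stood at 426.6, 339.2 and 293.6 CPM against 0.844 and 1.32, and Sox17 at 373.8, 228.8 and 230.7 against 0.993 and 1.65. The lines overlapped in none of these 6 genes, and in 79.4% of all tested genes they did not overlap either.

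**Figure D1:**
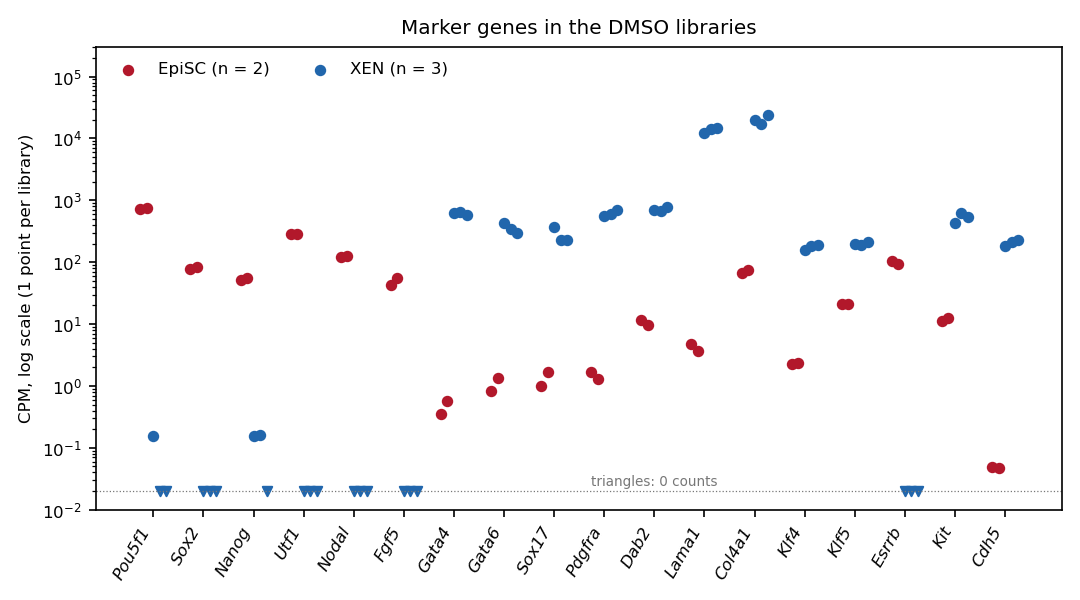
CPM of 18 genes on a log axis in each DMSO library, red for the 2 EpiSC libraries and blue for the 3 XEN libraries, with triangles on the dotted line for 0 counts. Pou5f1 to Fgf5 and Esrrb are high in EpiSC, Gata4 to Klf5, Kit and Cdh5 are high in XEN, and no gene overlaps between the lines.

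Promoters of genes that went with each line are shown because short letter groups bound by lineage factors can be read in them. AGATAA is a form of the GATA factor motif, and ATGCAAAT is the octamer bound by POU factors such as OCT4. The sequences below are the 100 bases before the start site in RefSeq's promoter table (build GRCm38.p6), 5′ to 3′ on the gene's strand, with the GATA or octamer letters in capitals. The first 3 genes were high in XEN and the last 2 in EpiSC. In the last 2 the octamer reads on the opposite strand. The genes shown all hold these letters, so they do not tell how often genes of either line do.
Dpp4 (chr2:62412232-62412331, minus strand): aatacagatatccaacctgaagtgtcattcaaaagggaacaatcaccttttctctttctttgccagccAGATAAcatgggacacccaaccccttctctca
Gkn1 (chr6:87350916-87351015, minus strand): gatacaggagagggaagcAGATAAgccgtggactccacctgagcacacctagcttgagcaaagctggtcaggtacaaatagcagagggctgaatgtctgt
Hnf4a (chr2:163506757-163506856, plus strand): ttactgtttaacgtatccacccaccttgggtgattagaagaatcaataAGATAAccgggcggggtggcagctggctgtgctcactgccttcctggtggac
Hmga1 (chr17:27556474-27556573, plus strand): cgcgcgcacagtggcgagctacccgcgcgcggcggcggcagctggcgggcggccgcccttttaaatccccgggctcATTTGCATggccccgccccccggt
Sfrp2 (chr3:83766221-83766320, plus strand): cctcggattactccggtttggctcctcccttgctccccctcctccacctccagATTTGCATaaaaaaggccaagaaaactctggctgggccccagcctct

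Dpp4, a membrane peptidase, stood at 72.53, 73.84 and 62.46 CPM in XEN with 0 counts in EpiSC, and its AGATAA begins 32 bases before the start. Gkn1, a secreted gastrokine, stood at 17.86, 27.37 and 69.04 CPM in XEN with 0 counts in EpiSC. Hnf4a, a nuclear receptor of endoderm, stood at 18.8, 18.78 and 21.71 CPM in XEN with 1 read over the EpiSC libraries. Hmga1, an architectural chromatin protein, stood at 603.4 and 558.7 CPM in EpiSC against 0.648 to 1.72 in XEN, and its octamer begins 24 bases before the start. Sfrp2, a secreted WNT inhibitor, stood at 9.24 and 8.91 CPM in EpiSC with 0 counts in XEN.

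Over the promoters that could be matched, AGATAA on either strand lay within the 300 bases from 250 before to 50 after the start in 8.96% of 971 XEN-high genes, 5.81% of 1772 EpiSC-high genes and 6.13% of all 11127 tested genes with a promoter. ATGCAAAT lay in 1.03%, 2.31% and 1.38%. Further motifs searched, on either strand, are given in the same order. ACAATG, a SOX motif, lay in 8.86%, 6.32% and 6.92%. CAAAGTCCA, an HNF4 motif, lay in 0.309%, 0.282% and 0.333%, and TGTTTAC, a FOXA motif, in 2.57%, 1.86% and 2.38%. CATTCC, a TEAD motif, lay in 15.2%, 14.6% and 12.2%, and CAGCAGG, a ZIC motif, in 13.4%, 12.2% and 10.4%, higher in XEN-high than in EpiSC-high promoters. These are descriptions of letters, not of binding, and genes of the other line held them too. Nfasc, an EpiSC-high adhesion molecule with 0 counts in XEN, has AGATAA beginning 54 bases before its start. Lin28b, also EpiSC-high, has AGATAA beginning 196 and 123 bases before its start. Tspan8, a XEN-high gene with 0 counts in EpiSC, has the octamer beginning 195 bases before its start. Promoters of both sets were poorer in CpG than those of all tested genes, with medians of 14 (XEN-high), 17 (EpiSC-high) and 20 per 300 bases. At most 3 CpG were found in 11.8% of XEN-high and 8.35% of EpiSC-high promoters, against 5.31% of all.

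The pluripotency network was on in EpiSC, with exceptions. Of 12 core genes, 9 were called higher in EpiSC, 8 of them at least 4-fold, and 2 were called higher in XEN, with a median log2 fold change of 5.22. Sox2, the partner of OCT4, stood at 76.99 and 83.62 CPM against 0 counts in XEN, at least 556.2-fold higher. Nanog stood at 52.05 and 55.13 CPM against 2 reads over the XEN libraries. Utf1, a chromatin protein of pluripotent cells, stood at 288.7 and 281.4 CPM against 0 counts in XEN. Sall4, a zinc finger factor of the same network, was lower in EpiSC, with means of 93.7 CPM against 270.3 in XEN. Lin28a, an RNA-binding protein that blocks let-7 maturation, had means of 298.8 CPM in EpiSC and 244.3 in XEN and was not called. Its paralog Lin28b stood at 113.7 and 112.1 CPM in EpiSC against 0.488 to 2.98 in XEN.

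Primed epiblast genes went with EpiSC: 14 of 14 were called higher there, 12 of them at least 4-fold, with a median of 5.07. Pou3f1, a POU factor of the late epiblast, stood at 116.6 and 125.5 CPM with 0 counts in XEN. Sox3, Foxd3 and Otx2, further factors of primed epiblast and early neural tissue, had 0 counts in every XEN library and means of 65.1, 58.2 and 41.3 CPM in EpiSC. The ZIC factors Zic2 and Zic5 were called 19.6-fold and 8.1-fold higher in EpiSC, and Zic2 was 37.4-fold higher without XEN replicate 2, which at 8.74 CPM lay above the other XEN libraries. Dnmt3b, a de novo DNA methyltransferase, was less far apart, with means of 221.5 CPM against 153.3.

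Genes known from naive pluripotency, the state before implantation, did not go with EpiSC. Of 15 tested, 3 were at least 4-fold higher in EpiSC and 7 in XEN. Klf4, a Krüppel-like factor, stood at 154.6, 181.7 and 187.9 CPM in XEN, compared with 2.29 and 2.31 in EpiSC, 76.5-fold higher in XEN. Klf5 stood at 195.7, 191.7 and 210.1 CPM in XEN, compared with 21.01 and 21.22 in EpiSC, and Tbx3, a T-box repressor, at 67.94 to 76.13 against 0.397 and 0.613. Tfcp2l1, another naive factor, had means of 50.2 CPM in XEN and 5.48 in EpiSC. Esrrb, an orphan nuclear receptor usually listed as naive, went the other way, with 104.3 and 93.05 CPM in EpiSC and 0 counts in XEN. Prdm14, Dppa3 and Tcl1 were not tested, with 0 CPM in both lines.

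Primitive endoderm regulators stood high in XEN for 9 of the 11 tested genes at the 4-fold level, with a median of -7.70. Pdgfra, the PDGF receptor of this lineage, stood at 549.8, 606.6 and 690.9 CPM in XEN, compared with 1.69 and 1.27 in EpiSC. Dab2, an endocytic adaptor, was 67.3-fold higher in XEN, and Foxa2, a forkhead factor of endoderm, had a mean of 94 CPM there against 3.07. Sox7 varied most within XEN, at 63.91, 251.5 and 66.36 CPM, with replicate 2 the highest, and stayed apart from EpiSC at 0.397 and 0.519. Its log2 fold change of -8.08 was -7.13 without that library. Foxa1 was the exception in the list, at 0.854 CPM in EpiSC against 0.0522 in XEN.

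Of 12 parietal genes, 8 were at least 4-fold higher in XEN and none in EpiSC. The parathyroid hormone receptor Pth1r stood at 384.9, 443.5 and 376 CPM in XEN, compared with 2.93 and 3.35. Plat, the tissue plasminogen activator, was 35.8-fold higher in XEN, and Tfpi, a clotting inhibitor, 47.5-fold higher. The keratins Krt8 and Krt19 and the filament gene Vim were not called. Krt18, called slightly higher in EpiSC at 0.57 ± 0.20 (log2 ± SE), turned to -0.19 when scaled to ribosomal protein genes and to -0.00018 with length and GC correction. Its call was also lost without EpiSC replicate 1 (adjusted p = 0.11 in edgeR) and with the 5 DMSO libraries alone (0.070). Of 24 visceral genes, 16 were tested, 9 were at least 4-fold higher in XEN and 1 in EpiSC. Ttr, which carries thyroid hormone and retinol-binding protein, stood at 58.43, 64.28 and 88.93 CPM in XEN with 0 counts in EpiSC, at least 995-fold higher. Cubn, an uptake receptor, ran from 48.92 to 209 CPM across XEN libraries against 0.755 and 0.795 in EpiSC, and its log2 fold change of -7.26 was -6.59 without XEN replicate 2. Afp, Apoa1, Apob and 5 other secreted carriers were not tested, with line means of at most 0.373 CPM.

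The largest amounts of line-specific RNA encoded the basement membrane. Lama1 stood at 12251, 14228 and 14707 CPM in XEN, compared with 4.77 and 3.68 in EpiSC, 3281-fold higher in XEN. Lamb1 and Lamc1, its partner chains in laminin-111, had means of 8930 and 10814 CPM in XEN and 320 and 381 in EpiSC, 28.1-fold and 28.4-fold apart. Per kb of transcript, the 3 chains stood at nearly the same level in XEN: 1441 CPM per kb for Lama1, 1544 for Lamb1 and 1419 for Lamc1. In EpiSC, Lama1 stood at 0.443 CPM per kb, far under Lamb1 at 55.3 and Lamc1 at 49.9. The highest laminin alpha chain per kb in EpiSC was Lama5, at 45.0, which was 4.94-fold higher in EpiSC than in XEN.

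Col4a1 stood at 20120, 17119 and 24261 CPM in XEN, compared with 67.6 and 74.85 in EpiSC, and Col4a2 at 8572, 7905 and 11850 against 58.21 and 54.47. Col4a5 and Col4a6, a neighbouring pair of chains on the X chromosome, went the other way but did not exceed Col4a1 and Col4a2 in EpiSC per kb (6.06 and 2.22 against 10.8 and 8.74 CPM per kb), with means of 39.6 and 14.8 CPM in EpiSC against 0.23 and 0.054 in XEN. Col18a1, a basement membrane collagen, stood at 164.7 and 161.1 CPM in EpiSC against 0.162 to 0.61 in XEN, a log2 fold change of 8.70, or 9.36 without XEN replicate 3. The 3 laminin-111 chains and the 2 main collagen IV chains together took 5.29% to 6.2% of every count in XEN and 0.0898% to 0.0914% in EpiSC.

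Over the basement membrane list as a whole the counts were less one-sided, with 11 of 36 tested genes at least 4-fold higher in XEN and 9 in EpiSC (15 and 5 when scaled to ribosomal protein genes). The 8 enzymes and chaperones of collagen folding and crosslinking were called higher in XEN without exception, 4 of them at least 4-fold, such as the prolyl hydroxylase P4ha2 at 14.3-fold. Over the collagen family, whose members include the basement membrane chains, of 33 tested genes 19 were at least 4-fold higher in EpiSC and 4 in XEN. Col5a2 and Col5a1, fibrillar collagens, had means of 55.5 and 45.8 CPM in EpiSC against 0 and 0.209 in XEN, and the XEN reads of Col5a1 came from replicate 1 alone.

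**Figure D2:**
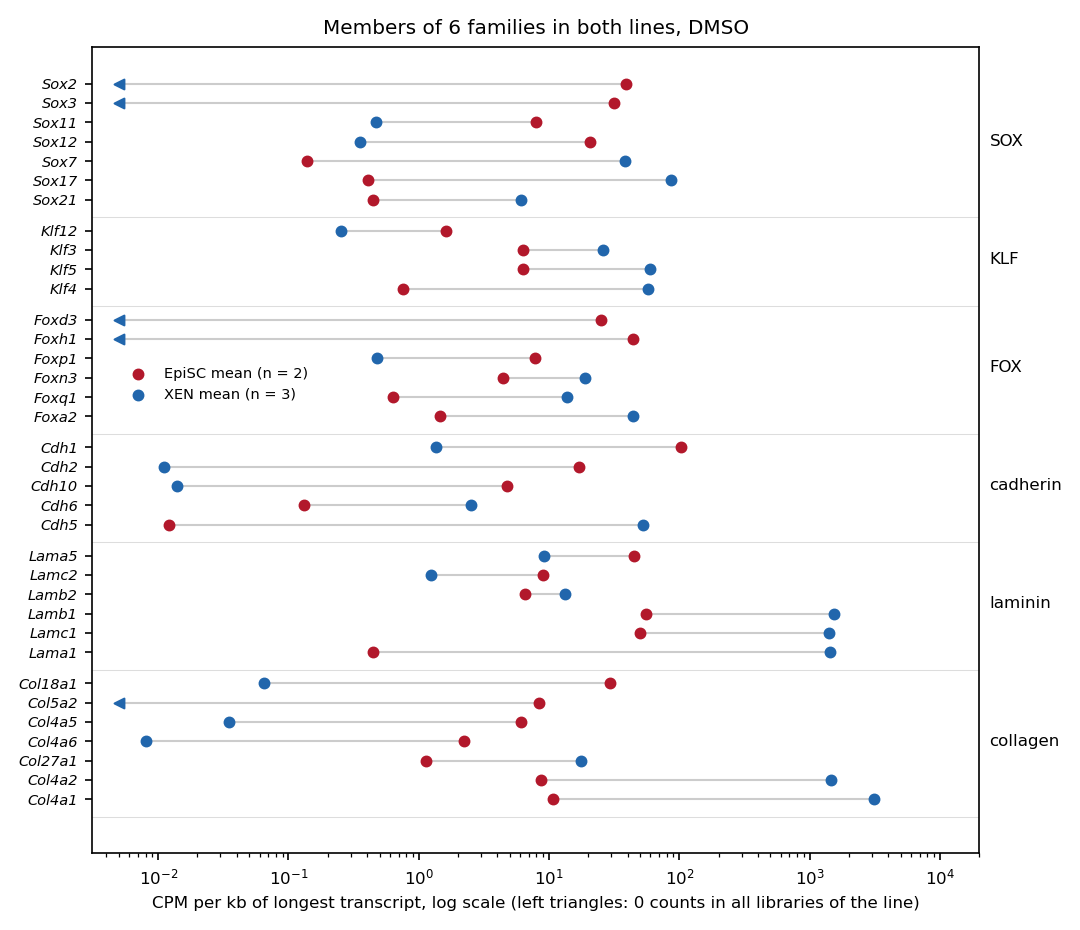
Mean CPM per kb of the longest transcript on a log axis for 35 genes of 6 families, red for EpiSC (n = 2) and blue for XEN (n = 3), joined by a line, with triangles where every library of the line had 0 counts. Lama1, Lamb1 and Lamc1 lie close together in XEN, at 1419 to 1544 CPM per kb, and of the 3 Lama1 falls furthest in EpiSC, to 0.443.

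Endocytosis and lysosome genes were called higher in XEN for 22 of 29, 12 of them at least 4-fold, with a median of -1.83. Ctsl, a lysosomal protease, stood at 2593, 2424 and 3275 CPM in XEN, compared with 205.8 and 224.4 in EpiSC. Lamp1, a lysosomal membrane protein, had means of 1675 and 396.4 CPM. Tfeb, a transcription factor of lysosomal genes, had means of 25 CPM in XEN and 4.27 in EpiSC. Hexa and the HDL receptor Scarb1 were the exceptions of at least 4-fold, both higher in EpiSC, and neither reached 4-fold when scaled to ribosomal protein genes. Hexa was not called without EpiSC replicate 1 (adjusted p = 0.051 in edgeR), and most of its XEN reads came from replicate 3.

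Nodal pathway ligands, most inhibitors and the nuclear partner FOXH1 were higher in EpiSC. The 5 ligand and co-receptor genes were each at least 4-fold higher in EpiSC, and 4 of 7 inhibitors were. Tdgf1, the co-receptor Cripto, stood at 226.5 and 212.8 CPM in EpiSC against at most 0.157 in XEN. Lefty1 and Lefty2, secreted inhibitors that Nodal signalling induces, had means of 544.1 and 175.6 CPM in EpiSC against 0.458 and 0 in XEN. Foxh1, which takes SMADs to their targets, stood at 60.8 and 58.67 CPM against 0 counts. Of the 9 receptors, effectors and convertases tested, 5 lay within 2-fold. Acvr1b, a type I receptor, had means of 41.2 CPM in EpiSC and 63.6 in XEN and was called higher in XEN, and Smad4 had 92.2 and 84.2 and was not called. Fst, a secreted binder of activins, was 10.4-fold higher in XEN, at 744.9 to 1076 CPM against 78.38 and 89.18.

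FGF genes were exchanged between the lines rather than on in one of them. Among ligands, Fgf4, Fgf5, Fgf8 and Fgf15 had 0 counts in XEN, while Fgf3 and Fgf10 had means of 11.2 and 16.4 CPM in XEN against 0.119 and 0.41 in EpiSC. Among receptors, Fgfr1 stood at 219.5 and 223.1 CPM in EpiSC against 3.66 to 18.95 in XEN. Fgfr3, Fgfr4 and the co-receptor Klb were 32.4-fold, 17.1-fold and 541.7-fold higher in XEN. Without XEN replicate 2 the log2 fold change of Fgfr1 was 5.29 instead of 4.49, and without an EpiSC library that of Fgf3 (-6.43) ran from -7.56 (replicate 2) to -5.81 (replicate 1). That of Klb (-8.97) was -9.80 without EpiSC replicate 2. Feedback genes and targets of the pathway went one way: 8 of 9 were called higher in EpiSC, 4 at least 4-fold, such as Dusp6, a phosphatase of ERK, with means of 272.5 CPM against 8.22, and Etv4 with 95.3 against 2.15. The EpiSC medium holds Fgf2, and its part in this difference was not tested.

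WNT genes were higher in EpiSC at the 4-fold level for 24 of 49 tested genes and in XEN for 3 (21 and 9 when scaled to ribosomal protein genes), with a median of 2.05. Wnt8a stood at 146.5 and 158.9 CPM and Wnt3 at 60 and 65.6 CPM in EpiSC, both with 0 counts in XEN. The receptors were mixed, with a median of -0.11: Fzd10 stood at 41.28 and 39.33 CPM in EpiSC with 0 counts in XEN, and 6 of 14 receptors lay within 2-fold. Lef1 and Tcf7 had means of 59 and 77.8 CPM in EpiSC against 0.538 and 5.09 in XEN, while Tcf7l2 had 164.1 CPM in XEN against 8.86 in EpiSC. Most XEN reads of Lef1 came from replicate 2, and the log2 fold change of Tcf7, 3.97, was 4.65 without that library. Axin2, a common readout of the pathway, had means of 18 CPM in EpiSC and 3.55 in XEN.

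BMP genes leaned to XEN, with 8 of 26 at least 4-fold higher there and 5 in EpiSC. Bmper, a secreted BMP regulator, stood at 213.3 to 250.5 CPM in XEN against 0.447 and 0.283 in EpiSC, and Nog, a BMP antagonist, was 23.6-fold higher in XEN. The ligands did not share this lean: of 7 tested, 3 were at least 4-fold higher in EpiSC and 2 in XEN. Bmp2 and Bmp6 had means of 16 and 14.4 CPM in XEN, and Bmp7 had 7.45 CPM in EpiSC with 0 counts in XEN. Bmp4 had a log2 fold change of 4.20, and most of its XEN reads came from replicate 3. Its fitted value without that library, 9.43, rests on few or no XEN reads and is not a size. Id2 and Id4, which BMP signals induce, were called higher in XEN at means of 104 and 12.6 CPM against 12.1 and 0.87, and Id1 and Id3 were not called. Smad6, of the same list, went the other way, at 8.00 and 8.87 CPM in EpiSC against 2 reads over the XEN libraries. In the retinoid list, Stra6, a receptor for retinol-binding protein, and Rbp4 itself were 118-fold and 49.7-fold higher in XEN.

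Epithelial junction genes leaned to EpiSC. Of 24, 14 were at least 4-fold higher in EpiSC and none in XEN, with a median of 3.54. Cdh1, E-cadherin, stood at 465.5 and 439 CPM in EpiSC against 7.36, 2.59 and 8.05 in XEN. Epcam stood at 304 and 314 CPM against 13.44 to 17.93. Cldn4 had 38.5 CPM in EpiSC with 0 counts in XEN, and the splicing factor Esrp1 had means of 67 CPM against 3.15. Desmosome and zonula genes did not follow: Dsp, Jup, Pkp2 and Tjp1 were within 2-fold and not called. EpiSC also held Cdh2, N-cadherin, at 83.05 and 82.53 CPM against 1 read over the XEN libraries. XEN held neither at these levels and stood high for Cdh5 and Cdh6, at means of 210 and 20.5 CPM against 0.0484 and 1.07.

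The mesenchymal list was mixed, with 6 of 15 genes at least 4-fold higher in EpiSC and 3 in XEN. Twist1 stood at 27.02 and 28.01 CPM in EpiSC with 0 counts in XEN, and Fn1, fibronectin, had means of 455 CPM against 49.4. Snai1, Zeb1 and Cdh6 were higher in XEN, but Snai1 was not called without EpiSC replicate 2 (adjusted p = 0.075 in edgeR). Its log2 fold change of -2.68 was -1.73 without XEN replicate 2 and -3.29 without EpiSC replicate 1. The mesenchymal list's median of 0.64 turned to -0.14 when scaled to ribosomal protein genes.

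Markers of other cell types moved with both lines and bear on several lists. Fibroblast markers were at least 4-fold higher in EpiSC for 10 of 12 tested, and the 15 markers summed to 264 to 290 CPM in EpiSC and 51.5 to 70.1 in XEN. Col1a1 and Col1a2 had means of 27.1 and 17.5 CPM in EpiSC against 0.212 and 0.0946 in XEN, Col3a1 1.35 in EpiSC, and Lum had 0 counts. Most of the XEN sum was Fbn1, at a mean of 47.78 CPM, the 1 marker called higher in XEN. Its log2 fold change of -0.47 was -0.28 without XEN replicate 2, where it was not called (adjusted p = 0.12 in edgeR). In XEN, Thy1, Col3a1 and Twist1 were among 6 markers at 0 counts. The part of such cells in the collagen, Twist1 and Fn1 differences was not tested. In bulk RNA, fewer cells of a type and less RNA per cell cannot be told apart.

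Blood and endothelial markers summed to 341 to 427 CPM in XEN and 5.24 to 6.21 in EpiSC. Most of the XEN sum came from Cdh5, VE-cadherin, at 183.4, 215.8 and 230.7 CPM, and Tek, the angiopoietin receptor, at 122.7, 128.9 and 168 CPM. Ptprc and Tal1, defining genes of blood, were at 0 counts in XEN, and Kdr, a defining gene of endothelium, had a mean of 3.68 CPM (log2 fold change -1.79, or -1.16 without XEN replicate 2). Runx1, a regulator of blood formation, stood at 31.64, 25.91 and 25.86 CPM in XEN and at 3.18 and 2.5 in EpiSC, called 9.77-fold higher in XEN. Kit, a receptor listed here with germ cells, stood at 425.6, 624.5 and 543.8 CPM in XEN, compared with 11.32 and 12.59 in EpiSC, with the germ cell gene Dppa3 at 0 counts in both lines. Trophoblast markers summed to at most 18.4 CPM in either line, most of it Rhox6 in XEN replicate 3, at 17.2 CPM. Rhox6 was no longer called without that library (adjusted p = 0.096 in edgeR), without EpiSC replicate 1 (0.069) or without EpiSC replicate 2 (0.060).

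Primitive streak genes were detected in EpiSC: 10 of 15 tested were at least 4-fold higher there, against 2 in XEN. T, Brachyury, stood at 44.01 and 40.04 CPM with 0 counts in XEN, and Eomes at 54.64 and 55.09 against 0.732 to 0.972. Mesp1 and Msgn1, genes of nascent mesoderm, were not tested, with line means of at most 0.166 CPM. Neuroectoderm genes were low apart from Nes, a filament gene, at 334.7 and 297.6 CPM in EpiSC against 4.51 to 6.64 in XEN. HOX genes, 11 of 16 tested at least 4-fold higher in EpiSC, did not exceed a mean of 3.2 CPM in either line.

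**Figure D3:**
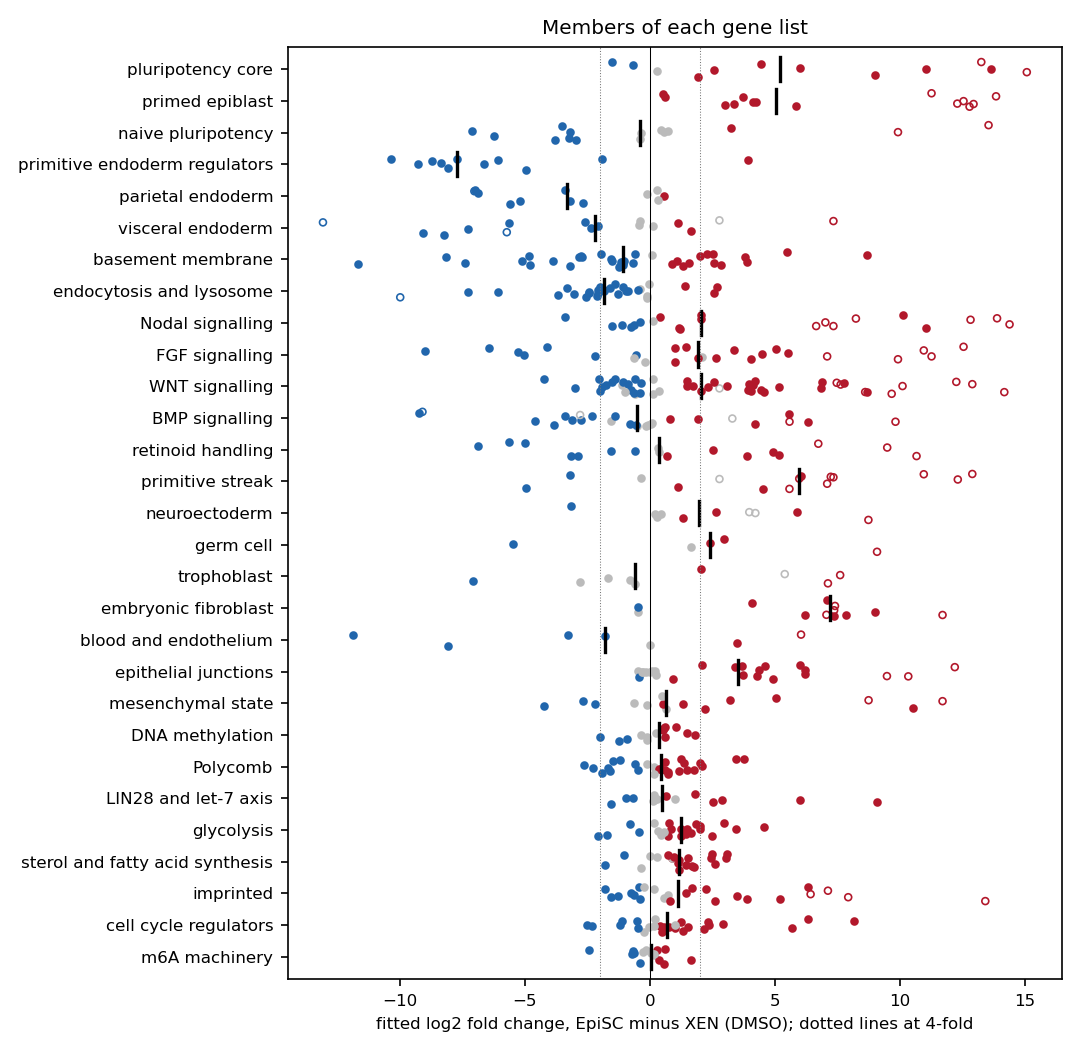
Fitted log2 fold change (EpiSC minus XEN) of the tested members of 29 gene lists, red where called higher in EpiSC, blue where called higher in XEN, grey where not called, and open where a line had 0 counts, so that the position is not a size. Black bars are list medians: 5.22 for core pluripotency genes, -7.70 for primitive endoderm regulators and 0.06 for the m6A machinery.

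The genes furthest apart included some outside the lineage lists. In XEN, Aqp8, a water channel, stood at 518.2, 621 and 490.9 CPM with 0 counts in EpiSC, at least 7413-fold higher. Srgn, the proteoglycan serglycin, stood at 763.4, 896.1 and 774.8 CPM with 1 read over the EpiSC libraries. Gkn2, a second gastrokine, ran from 163.1 to 524.4 CPM, highest in replicate 3, as Gkn1 did. Enpep and Dpp4, peptidases of absorptive membranes, and Tfec and Tcf23, transcription factors, were also among the 15 XEN genes with the largest folds. In EpiSC, Stmn2, a tubulin regulator of neurons, stood at 197.4 and 197.2 CPM, Gng3, a G-protein subunit of brain, at 158.2 and 145.4, and Crmp1 at 111.5 and 109.2, each with 0 counts in XEN. Cntfr, a cytokine receptor, and Gria3, a glutamate receptor, had means of 104.2 and 86.6 CPM with 0 counts in XEN.

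No DNA methylation gene of 14 was 4-fold apart, and 9 lay within 2-fold; scaled to ribosomal protein genes, or with protein-coding genes alone in the fit, 2 were at least 4-fold higher in XEN. Their median of 0.38 turned to -0.42 when scaled to ribosomal protein genes. Tet3, a DNA demethylase, was 3.97-fold higher in XEN, and Mbd3 3.5-fold higher in EpiSC. Of 27 Polycomb genes, 15 were called higher in EpiSC and 9 in XEN, and 11 lay within 2-fold. Ezh2 had means of 165.7 CPM in EpiSC and 48.5 in XEN, and Ezh1 17.1 and 54. Cbx2 and Cbx7 were higher in EpiSC and Cbx8 in XEN. Phc1 was 13.9-fold higher in EpiSC, and Pcgf5 6.18-fold higher in XEN. The list's median of 0.47 turned to -0.33 when scaled to ribosomal protein genes.

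Among the genes that let-7 is known to repress, Hmga2 and Igf2bp3 were 7.54-fold and 5.85-fold higher in EpiSC, whereas Igf2bp1 and Igf2bp2 were called higher in XEN at means of 429.4 and 325.2 CPM against 223.7 and 110.2. Hmga1 has a near-identical copy in the mouse genome, and the sources used here do not say how reads were split between such copies, so its level is uncertain; the same holds for Gapdh and Eno1.

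Glycolysis genes were called higher in EpiSC for 15 of 23 with 6 at least 4-fold and 1 in XEN (median 1.23, and 0.38 when scaled to ribosomal protein genes). Eno1, enolase, stood at 2449 and 2293 CPM in EpiSC against 228.2 to 421.5 in XEN, and Pfkp at 67.85 and 64.09 against 0.976 to 4.39. The lactate transporters changed places, with Slc16a3 at 230.1 and 193.3 CPM in EpiSC against 18.95, 77.24 and 16.83 in XEN and Slc16a1 at means of 156.6 against 511.8. The log2 fold change of Slc16a3, 2.51, was 3.56 without XEN replicate 2. Its call was lost without XEN replicate 1 (adjusted p = 0.055 in edgeR), without XEN replicate 3 (0.054) or without EpiSC replicate 1 (0.059), and when scaled to ribosomal protein genes (0.12). Sterol synthesis genes were called higher in EpiSC for 12 of 15, against 43.4% of all tested genes, with a median of 1.43. Idi1, Nsdhl and Dhcr7 were each at least 4-fold higher there. Sqle, at 0.88, was not called without any 1 of the XEN libraries (adjusted p = 0.061 to 0.15 in edgeR). When scaled to ribosomal protein genes, the sterol median was 0.67. Under it, 2 sterol genes instead of 4 were at least 4-fold higher in EpiSC, and 1 in XEN. Oxidative phosphorylation subunits encoded in the nucleus had a median of 0.08, which turned to -0.69 under that scaling, and 69 of 79 lay within 2-fold.

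In the cell cycle list, 15 of 26 genes were called higher in EpiSC and 6 in XEN. At least 4-fold higher were 7 in EpiSC and 2 in XEN. The list's median of 0.67 turned to -0.12 when scaled to ribosomal protein genes. Ccnd1, cyclin D1, stood at 104.1 and 97.01 CPM in EpiSC against 0.157 to 0.648 in XEN. Cdk6, its kinase partner, stood at 33.63 and 32.59 against 0.122 to 1.3. Ccnd2 and Ccna2 were not called, with means of 127.9 and 148.7 CPM, and 234.6 and 237.3 CPM. Trp53 was 5.24-fold higher in EpiSC and its target Cdkn1a had means of 272.9 CPM against 55.2. Among imprinted genes, 10 of 24 were at least 4-fold higher in EpiSC and none in XEN (8 and 3 when scaled to ribosomal protein genes). Mest stood at 87.52 and 92.3 CPM with 0 counts in XEN, Grb10 at 255.7 and 229 against 10.04 to 26.35, and Cdkn1c at 19.37 and 20.23 against at most 0.488. Without XEN replicate 3 the log2 fold change of Grb10 was 4.47 instead of 3.88, and most XEN reads of Cdkn1c came from that library. Without XEN replicate 2, that of Ccnd1 was 8.88 instead of 8.18 and that of Cdk6 6.55 instead of 5.70; Cdk6 stood at 5.10 without XEN replicate 3.

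The m6A machinery was at similar levels in the lines: 13 of 15 genes lay within 2-fold, and the median of 0.06 turned to -0.77 when scaled to ribosomal protein genes. Rbm15, an adaptor of the writer complex, stood at 102.1, 114.8 and 119.9 CPM in XEN, compared with 22.05 and 20.14 in EpiSC, 5.36-fold higher. Mettl14, the partner of METTL3, went the other way, at 53.05 and 52.44 CPM in EpiSC against 16.19 to 17.08 in XEN. Mettl3 stood at 32.34 and 29.95 CPM in EpiSC against 46.47 to 57.58 in XEN, a log2 fold change of -0.71 ± 0.13 (adjusted p = 9.6e-05 in edgeR).

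Genes on the X chromosome were shifted towards EpiSC as a whole. The 523 tested had a median log2 fold change of 1.23, against 0.21 for autosomal genes, and 165 (31.5%) were at least 4-fold higher in EpiSC, against 16.4% of autosomal genes. The shares at least 4-fold higher in XEN were 9.18% and 9.23%. Genes with at least 5 CPM in both lines showed the same shift in level, with a median of 0.89 for 312 X-linked genes and 0.10 for autosomal genes, and 76.9% of the X-linked genes had a fold change above 0, against a median of 56.5% over the autosomes. Autosomes were not alike either. On chromosome 19, 325 genes with at least 5 CPM in both lines had a median of -0.59, and 21.2% had a fold change above 0. Chromosome 16 had a median of -0.47 and chromosome 3 had 0.47, the highest of the autosomes.

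Over genes with at least 5 CPM in EpiSC, XEN and TSC, the chromosome 19 median of the EpiSC mean minus each XEN library was -0.61, -0.58 and -0.62, and that of each EpiSC library minus the XEN mean was -0.56 and -0.59. Chromosome 16 varied more between XEN libraries, at -0.37, -0.64 and -0.39, with replicate 2 the furthest. Set against TSC in DMSO, chromosome 19 stood at 0.53 in XEN and -0.08 in EpiSC, and chromosome 16 at 0.43 and 0.01. The X chromosome stood at 0.84 in EpiSC and -0.05 in XEN. Chromosome 3 stood at 0.32 in EpiSC and -0.15 in XEN. Other autosomes were not at 0 against TSC either, so 0 is no fixed baseline. Chromosome 11 stood at -0.518 in EpiSC and -0.615 in XEN. In XEN, chromosomes 4, 7 and 17 stood at -0.431, -0.459 and -0.432, lower than chromosome 3. Relative to the autosomal median, chromosome 19 stayed between -0.78 and -0.68, chromosome 16 between -0.62 and -0.45 and X between 0.77 and 0.90 under the 15 other settings, length and GC correction among them. These medians carry no test, since genes of a chromosome are not replicates. DNA copy number was not measured, and its part was not tested.

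**Figure D4:**
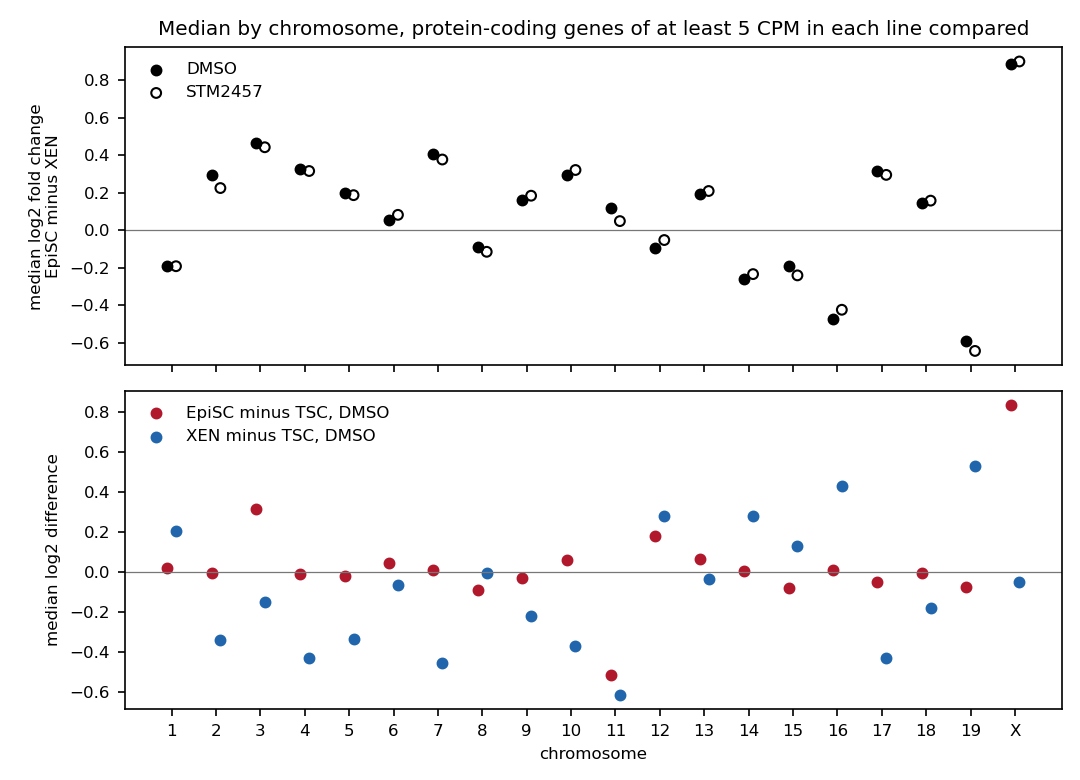
Median log2 fold change by chromosome. Above, EpiSC minus XEN for genes with at least 5 CPM in both lines, filled for DMSO and open for STM2457; below, EpiSC (red) and XEN (blue) each minus TSC in DMSO for genes with at least 5 CPM in all 3 lines. X stands highest in the upper panel at 0.89 and chromosome 19 lowest at -0.59, and in the lower panel the chromosome 19 point of XEN is at 0.53.

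Transcript structure moved with the line difference as well. From the shortest to the longest quartile of transcript length the median log2 fold change was 0.44, 0.35, 0.19 and -0.07, and from the lowest to the highest quartile of GC content 0.07, 0.11, 0.24 and 0.57. In the highest GC quartile 24.1% of genes were at least 4-fold higher in EpiSC, against 13.3% in the lowest. The part of library composition in these trends was not tested.

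The line difference was measured again in the STM2457 libraries, which share no sample with the DMSO ones. Of the 2419 genes at least 4-fold higher in EpiSC with DMSO, 2413 kept the sign and 2227 were called at least 4-fold with STM2457, where 17.2% of tested genes reached that level in EpiSC and 8.82% in XEN. Of the 1316 genes higher in XEN, 1313 kept the sign and 1106 were called at least 4-fold. The 139 genes named by rule kept their sign. All 139 were called with DMSO and most were picked for large folds, so this says little about other genes. The difference between the 2 line differences was called for 2 genes (0.014%), and 926 had an unadjusted p under 0.05. Among the 139, Klf5 had the lowest p for it, at 0.79 ± 0.18 (log2 ± SE, adjusted p = 0.38 in edgeR).

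**Figure D5:**
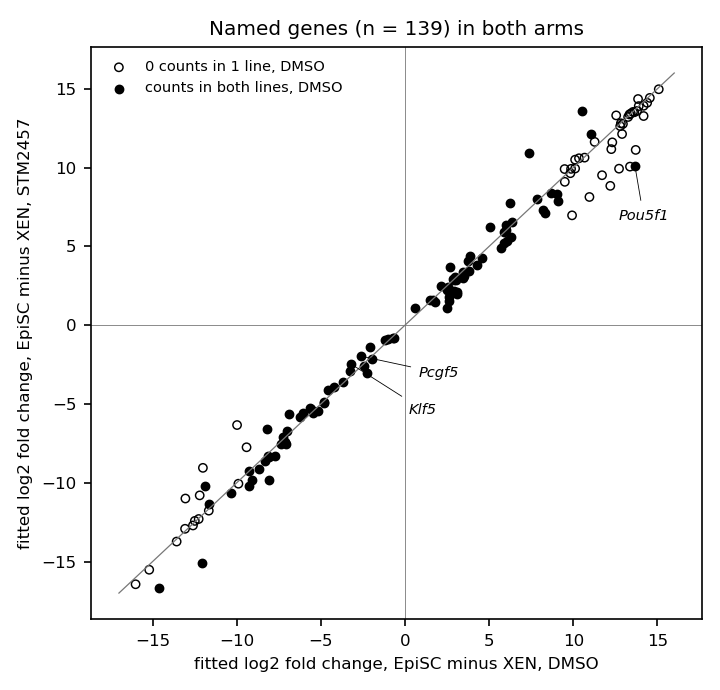
Fitted log2 fold change, EpiSC minus XEN, with DMSO (x) and with STM2457 (y) for the 139 genes named by rule, open where a line had 0 counts with DMSO; the grey diagonal marks equal values. All 139 points keep their sign, and Pou5f1, Pcgf5 and Klf5, with the smallest unadjusted p for a difference between arms, are labelled.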

How the data were processed

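The values are raw counts of reads for each gene, deposited by the authors without scaling. The submitters' processing notes name FastQC, Trim Galore, STAR, featureCounts and the build GRCm39; versions and the strand setting are not given there, so genes overlapping on opposite strands may share reads. Names, biotypes, chromosomes, length and GC were matched by Ensembl identifier to GENCODE M21 (built on GRCm38); 3281 of 55416 identifiers had no name. All 14 libraries were fitted in 6 groups in edgeR 4.0.16 (R 4.3.3) with TMM scaling, filterByExpr (minimum count 10, minimum total 15) and robust quasi-likelihood F tests, Benjamini-Hochberg adjusted over 18430 genes. The test was checked on simulated data. In these, few genes differed and all genes had the same spread, so the check does not cover a difference as broad as that between these lines. CPM use TMM-adjusted totals; n = 2 libraries for EpiSC and n = 3 for XEN. Folds are ratios of summed counts over scaled totals, and a line at 0 counts was set to 3 counts over the line. Medians are of fitted values; with genes at 0 counts set to their bound, the overall median was 0.23, that of Nodal ligands 4.09 instead of 8.25, and that of streak genes 2.95 instead of 5.98. Genes were named by rule: 6 markers, 15 largest folds per line with at least 20 CPM and no overlap, 4 largest changes in each list and in the lineage, adhesion and matrix families with at least 5 CPM, Mettl3, and 3 by the smallest p between arms; further list members named were chosen after their values were seen. The members and lists were chosen with earlier results of these data known. Length, GC and promoter letters are from GRCm38 models. Of the tested genes, 78.1% matched a promoter of RefSeq. Some genes and 1 of the 8 motifs searched are not reported here. Alternatives were other scalings (RLE, upper quartile, ribosomal protein genes), filters, DESeq2 1.42.0, smaller fits, a replicate block, a length and GC correction, and leaving out each library.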

Additional observations from a re-analysis of the deposited data

Results flagged for a closer look

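In 2 genes the EpiSC minus XEN difference itself differed between the arms. For Tor1aip2, a protein of the nuclear envelope and endoplasmic reticulum, the difference of differences was -1.02 ± 0.15 (log2 ± SE, adjusted p = 0.034 in edgeR). It stood at 113.5 and 109.5 CPM in EpiSC and at 402.8, 457.8 and 413 in XEN with DMSO, and at 116.2 and 126.7 in EpiSC and 886.9, 882.9 and 1041 in XEN with STM2457. For D10Wsu102e the difference of differences was -1.17 ± 0.17 (adjusted p = 0.034 in edgeR). It stood at 124.7 and 129.3 CPM in EpiSC and at 95.09, 127.6 and 112.6 in XEN with DMSO, and at 107.5 and 111.1 in EpiSC and 195.9, 206.5 and 245.3 in XEN with STM2457. In both genes the XEN libraries with STM2457 lay above those with DMSO, and the EpiSC libraries changed less. Both calls were lost without XEN replicate 3 in DMSO (adjusted p = 0.13), without any one of the 4 EpiSC libraries (0.25 to 0.47), with RLE factors (0.054) and with the 10 EpiSC and XEN libraries alone (0.40).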

How the results depend on the processing

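The call counts of the DMSO comparison stayed within 1.5 times under the 15 alternatives, with 1 exception: scaled to ribosomal protein genes, 2279 genes were at least 4-fold higher in XEN instead of 1316, and 1842 in EpiSC instead of 2419. The called genes numbered 8922 to 10519. Of the 2085 values of named genes under the alternatives, 2073 kept direction and call and 10 lost the call (Rhox6, Slc16a3 and Krt18). Krt18 reversed to -0.19 with ribosomal protein scaling and to -0.00018 with length and GC correction. A value without an adjusted p was read by its sign alone. The named genes were all called and mostly picked for large folds in these data, so this says little about other genes. Among called genes outside that set, Fgf2 lost its call without XEN replicate 2 and Foxa3 without XEN replicate 3. The count of genes whose line difference differed between arms was unstable: 2 in the fit reported, 0 with RLE factors, 59 with no filter, 0 with the 10 EpiSC and XEN libraries alone, 43 with DESeq2, and 0 to 4 with a library left out. Replicate numbers are shared between the lines. Deviations from the line mean had correlations of -0.044 and -0.059 across genes between same-numbered DMSO libraries. With 2 EpiSC libraries the deviations mirror each other, so pairs of unlike number gave 0.044 and 0.059 by construction. The correlations are therefore not separate checks of pairing, and XEN replicate 3 has no EpiSC partner. A replicate block gave 10380 called genes and 4 that differed between arms. With 2 and 3 libraries, and XEN at less depth, low-level genes limit what could be called.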
